A study of Homo sapiens with 10 samples.

Results

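The genes described here encode the enzymes and electron carriers that take acyl-CoA through beta-oxidation on the matrix side of the inner mitochondrial membrane. They were chosen by name, as the rows of the counts table for ACADVL, ACADM, ACADS, ECHS1, ECI1, HADHA, HADHB, ETFA, ETFB and ETFDH, and all 10 were found among 57353 gene symbols. All 10 were among the 17230 genes that passed the filter on low counts. RNA sequencing had been done on LNCaP-C4-2, a human castration-resistant prostate cancer cell line, with CPT1A lowered or raised by lentivirus. CPT1A is the outer membrane carnitine palmitoyltransferase that controls the entry of long-chain fatty acids into mitochondria, and the comparisons address what its level does to gene expression. The knockdown arm had 2 samples with a non-targeting shRNA (NT) and 3 with a single CPT1A shRNA (KD), all selected in puromycin at 1 µg/mL. The overexpression arm had 2 samples of empty vector (EV) and 3 with the CPT1A open reading frame (OE), all selected in blasticidin at 5 µg/mL. Each group was 1 transduced line, no separate transductions were described, and p-values therefore measure only the spread between these samples, which may be technical.

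Fatty acids are shortened in the matrix by repeated rounds of dehydrogenation, hydration, a further dehydrogenation and thiolysis, and each round releases acetyl-CoA. Chain length decides which acyl-CoA dehydrogenase acts, and the electrons removed in that step leave through electron transfer flavoprotein to ubiquinone in the inner membrane. Prostate cancer cells are known for drawing on fatty acids as fuel.

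The samples held 23555205 to 28615770 counts each. Levels are given as CPM, read counts scaled to a common library total after TMM normalization, and differences as log2 values from edgeR's quasi-likelihood test, with Benjamini-Hochberg adjustment over the 17230 genes. The limit for a call was an adjusted p of 0.0001, and a gene past it is said to have risen or fallen. The interaction is the OE minus EV difference less the KD minus NT difference. Before any result, replicate 2 of KD and replicate 2 of OE stood apart from the other samples of their groups. The chi-square per degree of freedom between KD 2 and the other KD samples was 7.14 and 7.29, against 2.35 between KD 1 and KD 3. Between OE 2 and the other OE samples it was 4.05 and 4.69, against 2.23 between OE 1 and OE 3.

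CPT1A itself followed the labels. Its level was 266 and 262 CPM in NT, 81.2, 86.4 and 86.2 in KD, 326 and 318 in EV, and 869.8, 914 and 861 in OE. The 3 KD samples were the lowest and the 3 OE samples the highest, with no overlap between any of the groups. CPT1A fell by 1.64 on the log2 scale in KD against NT (SE 0.047, adjusted p = 2.45e-18) and rose by 1.45 in OE against EV (SE 0.048, adjusted p = 2.54e-17). The counts do not separate transcripts of the introduced reading frame from those of the cell's own gene. CPT1A was also 0.29 higher in EV than in NT (SE 0.051, adjusted p = 9.80e-05).

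The cells were checked against markers of luminal prostate epithelium and of other cell types. The 8 luminal markers summed to between 5775 and 11630 CPM across the samples, and KLK3, which encodes prostate-specific antigen, was the most abundant at 2355 to 5946 CPM. The luminal sum was 5775 and 6038 CPM in NT, 8400 to 9132 in KD, 7969 and 7606 in EV, and 11170 to 11630 in OE. Of 14 markers of fibroblasts, leukocytes, endothelium, basal cells, smooth muscle and neuroendocrine cells, 7 to 11 were at 0 counts in a sample, and COL1A2, CD3E, PECAM1 and KRT5 were at 0 in all 10 samples. Their sum was 9.85 and 10.7 CPM in NT, 15.3 to 16.3 in KD, 9.16 and 10.6 in EV, and 11.4 to 13.2 in OE, nearly all of it COL1A1. Of the luminal markers, 4 were called higher and 1 lower in KD against NT, and 5 higher and 0 lower both in OE against EV and in EV against NT. Among all tested genes the higher and lower shares were 16.4% and 12.8% in KD against NT, 11.6% and 10.3% in OE against EV, and 5.25% and 2.91% in EV against NT. FOLH1, which encodes prostate-specific membrane antigen, was the lower one (−0.55 in KD against NT, adjusted p = 7.15e-10) and was at −0.14 in OE against EV. Both sums were higher in KD than in NT and in OE than in EV, so they moved with the comparisons described below, and their part in those results was not tested. In bulk RNA, fewer cells of a type and less RNA per cell cannot be told apart.

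The genes lie on 9 chromosomes, and only HADHA and HADHB are neighbours. These neighbours are transcribed away from each other from starts with 306 bases between them, at positions 26244632 and 26244939 of chromosome 2. RefSeq promoter windows (build GRCh38.p14, 250 bases before to 50 after a start) were found for 9 of the 10 genes, in 11 windows. ETFDH was not among them. The motifs searched, on both strands, were the nuclear receptor half-site AGGTCA, the ATF4 and C/EBP composite TGATGNAA, the CCAAT box and the GC box GGGCGG. No window of these genes held AGGTCA or TGATGNAA, which occurred in 13.8% and 3.62% of all 35116 windows. CCAAT occurred in windows of ETFA and ETFB, against 34.6% of all windows. GGGCGG was found in 10 of the 11 windows and in all 9 genes, against 45.0% of all windows. The GGGCGG in the HADHA window and 1 of the 2 in the HADHB window are the same bases, and in ETFA a CCAAT and a GGGCGG match overlap. A match is a description of the letters and no evidence of binding.

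The upstream stretches of 5 genes, 2 of which share 1, are printed 5′ to 3′ on the strand of the gene, without annotated exons: the shared HADHA and HADHB interval because the pair is divergent, and those of ECHS1, ACADS and ETFB because these genes rose in KD and their stretch holds a motif. Of the other genes that rose in KD, the ACADVL stretch of 243 bases held no motif, and ETFA had no stretch free of exons. Capitals mark the GC box and the CCAAT box on either strand, so that the GC box of the other strand reads CCGCCC and the CCAAT box of the other strand reads ATTGG. The stretches are chr2:26244673-26244747 (minus strand, as for HADHA), chr10:133373355-133373604 (minus strand), chr12:120725576-120725773 (plus strand) and chr19:51366389-51366638 (minus strand).
HADHA and HADHB interval: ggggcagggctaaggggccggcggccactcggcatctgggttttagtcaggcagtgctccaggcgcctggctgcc
ECHS1 upstream: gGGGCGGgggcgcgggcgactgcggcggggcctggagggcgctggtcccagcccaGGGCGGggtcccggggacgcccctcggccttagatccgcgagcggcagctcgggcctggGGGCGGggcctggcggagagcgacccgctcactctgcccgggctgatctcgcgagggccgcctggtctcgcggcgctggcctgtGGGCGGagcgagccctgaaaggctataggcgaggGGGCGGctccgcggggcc
ACADS upstream: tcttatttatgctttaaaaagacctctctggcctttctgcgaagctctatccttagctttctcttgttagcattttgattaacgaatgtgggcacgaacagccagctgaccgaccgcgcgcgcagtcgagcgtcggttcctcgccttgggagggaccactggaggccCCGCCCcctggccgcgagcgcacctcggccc
ETFB upstream: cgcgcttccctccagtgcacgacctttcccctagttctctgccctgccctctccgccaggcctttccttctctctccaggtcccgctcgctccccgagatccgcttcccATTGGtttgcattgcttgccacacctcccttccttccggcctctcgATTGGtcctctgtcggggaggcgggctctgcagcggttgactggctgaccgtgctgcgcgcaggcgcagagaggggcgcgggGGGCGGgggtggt
The ECHS1 stretch carries 5 of the 6 GGGCGG matches of its window, and its G and C content is 79.6%. The ACADS stretch has 1 match of the 2 in its window, at 58.1% G and C, and the ETFB stretch has both CCAAT matches. None of the motifs lies in the stretch free of exons between the RefSeq starts of HADHA and HADHB. In GENCODE the span of HADHB begins before this stretch and overlaps the end of the HADHA span, with no overlap of their exons.

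Levels were compared between genes only per kilobase of the canonical transcript. ACADVL had the highest level per length in every group, with a mean of 202 CPM per kb in NT (SD 0.13, n = 2), 251 in KD (SD 14.2, n = 3), 237 in EV (SD 7.58, n = 2) and 275 in OE (SD 2.94, n = 3). ECHS1 came next, with means of 125, 212, 148 and 128 CPM per kb in the same order. ETFDH was the lowest in every group, at 10.0 to 11.4 CPM per kb. Between these, HADHA, ETFA, HADHB and ECI1 lay at 50.9 to 101 CPM per kb, and ETFB, ACADM and ACADS at 11.7 to 39.1. ECI1 was the sixth in NT and the third in OE, above HADHA and ETFA. Some neighbours in this order did not differ beyond their spread: HADHB and ECI1 in NT, ACADM and ACADS in EV, and ACADM and ETFDH in OE. With the length of all annotated exons in place of the canonical transcript, ECHS1 stood above ACADVL, ETFA below HADHB, and ETFB below ACADS, each the reverse of the order above in all 4 groups. ETFA also stood below ECI1 in every group, as it did in OE by the canonical length. ECI1 in OE then lay below HADHA (47.3 against 57.7 CPM per kb). Much of the order between genes therefore rests on the choice of length, while ETFDH was the lowest with either.

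**Figure D1:**
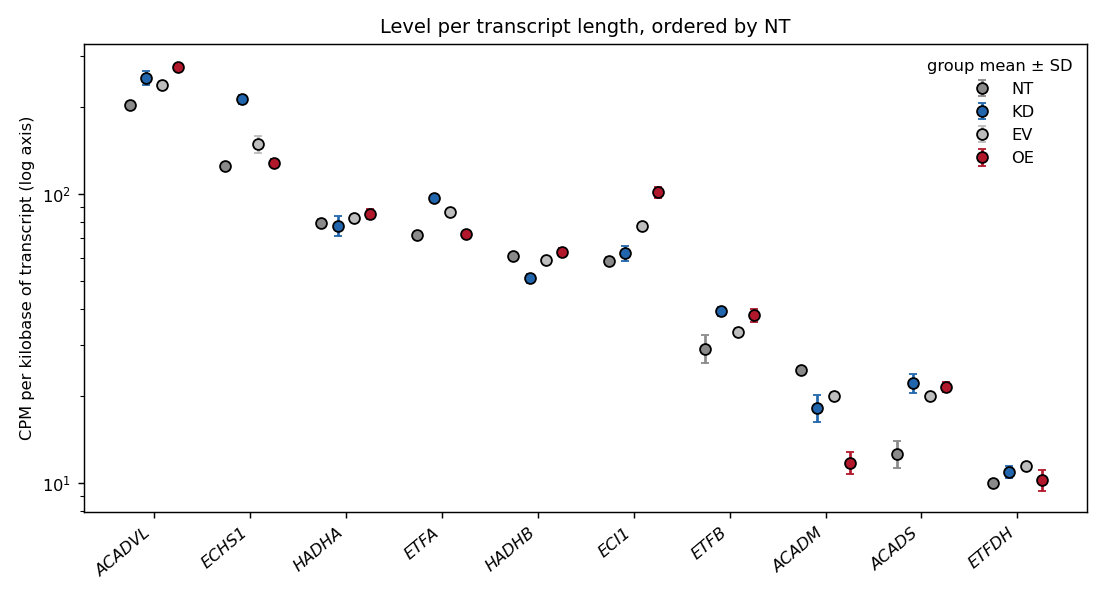
Mean level of each gene per kilobase of its canonical transcript, in CPM per kb on a log axis, in NT, KD, EV and OE (bars: SD, n = 2 or 3), ordered by NT. ACADVL is the highest and ETFDH the lowest in each group, and ECI1 in OE (101 CPM per kb) lies above HADHA (85.0), an order that turns with the length of all exons.

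Among the acyl-CoA dehydrogenases, which open each round of beta-oxidation, ACADM was lower in both arms, while ACADVL and ACADS rose in KD. ACADVL (chr17:7217125-7225266) acts on long chains. It was at 440 and 440.4 CPM in NT, 527, 584 and 534 in KD, 530 and 507 in EV, and 604, 607 and 594 in OE. Both NT samples were lower than every other sample, and the OE samples were the highest. KD exceeded NT by 0.32 on the log2 scale (SE 0.048, adjusted p = 4.99e-06). OE against EV gave 0.22 (SE 0.048, adjusted p = 0.000601), which missed the limit, and the interaction was −0.10 (adjusted p = 0.238). The KD call was lost without NT 1 (0.32) or NT 2 (0.32). Removing the trend on G and C content, as described below, also lost it (0.13, adjusted p = 0.00509). OE against EV was called without KD 2 (0.22, adjusted p = 9.03e-06), by DESeq2, with no filter on low counts, or with each arm fitted alone.

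ACADM (chr1:75724431-75787575), the medium-chain enzyme, had 55.3 CPM in both NT samples, 44.2, 35.9 and 42.6 in KD, 44.3 and 46.3 in EV, and 26.8, 23.99 and 28.6 in OE. The OE samples were the lowest of all 10, and KD lay below NT without overlap. ACADM fell by 0.77 on the log2 scale in OE against EV (SE 0.079, adjusted p = 2.32e-08), a level 1.71 times lower, and this call was kept in every alternative tried, with the difference at −0.37 once the trend on G and C content described below was removed. In KD against NT it fell by 0.43 (SE 0.075, adjusted p = 2.28e-05). The KD call was lost without NT 1 (−0.43, adjusted p = 0.000798) or NT 2 (−0.43, adjusted p = 0.000722), with scaling to library size alone, with the arms fitted alone, and with the trend on G and C content removed (−0.20, adjusted p = 0.00121). The interaction for ACADM was −0.34 (SE 0.11, adjusted p = 0.0143) and was not called. Its exons overlap those of RABGGTB on the same strand by 157 bases and those of the pseudogene DLSTP1, so reads there may be shared.

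ACADS (chr12:120725774-120740008), which handles short chains, was at 21.7 and 25.3 CPM in NT, 38.5, 44.5 and 40 in KD, 36.2 and 37.7 in EV, and 39.3, 41.7 and 38.8 in OE. The NT samples were the lowest, EV came next, and the ranges of KD and OE overlapped. KD exceeded NT by 0.80 (SE 0.076, adjusted p = 2.90e-09), 1.74-fold. This call was kept in every alternative tried, with differences from 0.65 to 0.92. OE against EV gave 0.11 (SE 0.073, adjusted p = 0.207). The interaction fell by 0.69 on the log2 scale (SE 0.10, adjusted p = 8.97e-06). This interaction was not called without NT 1 (−0.58, adjusted p = 0.000402) or EV 2 (−0.66, adjusted p = 0.000193). The controls differed as well, since ACADS was 0.65 higher in EV than in NT (SE 0.083, adjusted p = 1.70e-06), a call lost without NT 1 (0.55, adjusted p = 0.00035) or EV 2 (0.62, adjusted p = 0.000122).

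**Figure D2:**
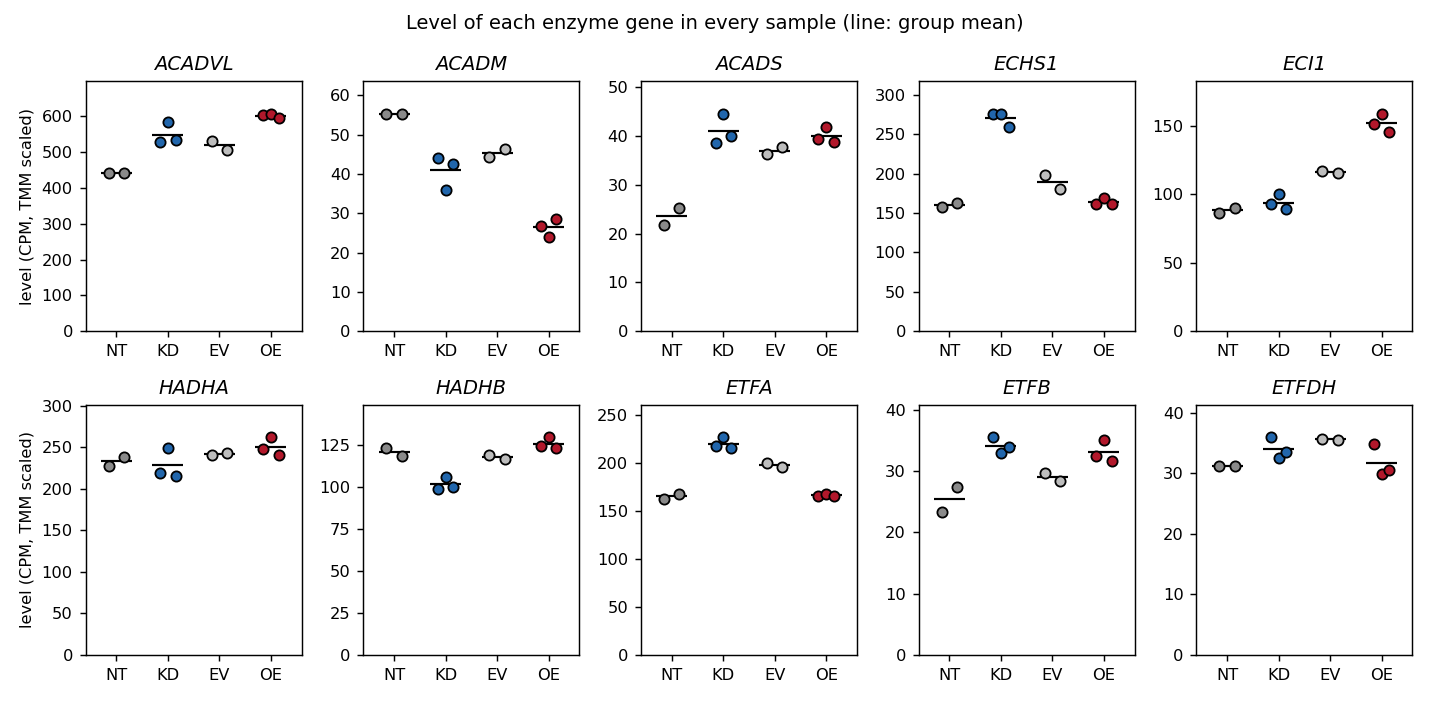
Level of each of the 10 genes in every sample, in CPM scaled by TMM (points: samples; lines: group means), in NT, KD, EV and OE. ACADM is lowest in OE (23.99 to 28.6 CPM), ECHS1 is highest in KD (259 to 276), and ACADS is lowest in NT (21.7 and 25.3).

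ECHS1, the short-chain enoyl-CoA hydratase that adds water in the next step, had the largest interaction of the 10 genes in absolute value. The gene lies at chr10:133362485-133373354. It was at 158 and 162 CPM in NT, 276, 276 and 259 in KD, 198 and 180.4 in EV, and 161, 169 and 161 in OE. All 3 KD samples stood above every other sample, and the OE samples lay below EV and overlapped NT. KD exceeded NT by 0.76 (SE 0.051, adjusted p = 5.31e-12), 1.69-fold. OE against EV gave −0.21 (SE 0.050, adjusted p = 0.00112), which was not called, with −0.13 (adjusted p = 0.119) without EV 1. The interaction fell by 0.97 on the log2 scale (SE 0.071, adjusted p = 8.77e-11), and both the KD call and the interaction call were kept in every alternative.

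ECI1 (chr16:2239402-2252300), the isomerase that moves the double bond of unsaturated fatty acids so that they can enter the pathway, was at 86.1 and 90.2 CPM in NT, 92.5, 99.8 and 88.9 in KD, 117 and 115 in EV, and 151, 159 and 145 in OE. The OE samples were the highest and EV came next, while NT and KD overlapped. OE exceeded EV by 0.38 (SE 0.054, adjusted p = 2.20e-06). This call was lost without EV 1 (0.41) or EV 2 (0.38). Removing the trend on G and C content, as described below, also lost it (0.15, adjusted p = 0.00314). KD against NT gave 0.09 (SE 0.055, adjusted p = 0.179), and the interaction of 0.30 (SE 0.077, adjusted p = 0.00284) was called only without KD 2 (0.34, adjusted p = 6.72e-05). ECI1 was also 0.40 higher in EV than in NT (SE 0.060, adjusted p = 1.44e-05). That call was lost when NT 1 (0.37), NT 2 (0.43), EV 1 (0.38) or EV 2 (0.41) was left out, and with that trend removed (0.22).

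HADHA and HADHB encode the subunits of the mitochondrial trifunctional protein, which carries long chains through the last steps of each round. HADHA (chr2:26190635-26244672) holds the hydratase and 3-hydroxyacyl-CoA dehydrogenase activities and was at 227 and 238 CPM in NT, 219, 249 and 216 in KD, 240.2 and 243 in EV, and 248, 262 and 241 in OE. The ranges of KD and NT, and of OE and EV, overlapped. HADHA gave 0.05 in OE against EV (95% interval −0.07 to 0.17, adjusted p = 0.478) and −0.03 in KD against NT (95% interval −0.14 to 0.09, adjusted p = 0.674). HADHB (chr2:26243170-26290465), the thiolase subunit, was at 123 and 119 CPM in NT, 98.7, 106 and 100.4 in KD, 119 and 117 in EV, and 124, 129.7 and 123 in OE. The KD samples were the lowest, below NT without overlap. KD against NT gave −0.25 (SE 0.049, adjusted p = 0.000106), just over the limit. DESeq2 and limma-voom called it, as did the fits without KD 2 (−0.28, adjusted p = 4.19e-06) or OE 2 (−0.25, adjusted p = 7.89e-05). The HADHB interaction was 0.34 (SE 0.069, adjusted p = 0.000257), called by DESeq2 and without KD 2 (0.37, adjusted p = 7.96e-06).

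The ratio of HADHA to HADHB counts does not depend on the scaling of libraries. It was 1.85 and 2.01 in NT, 2.22, 2.35 and 2.15 in KD, 2.02 and 2.08 in EV, and 1.99, 2.02 and 1.95 in OE. All KD ratios were above both NT ratios, and the OE and EV ratios overlapped. On the log2 scale, the KD mean exceeded the NT mean by 0.22 (two-sided exact permutation p = 0.1). That is the smallest p that the 10 arrangements of 3 against 2 samples allow, so the design could not reach 0.05. With the trend on G and C content removed as described below, HADHA was at −0.11 and HADHB at −0.23 in KD against NT, which is closer together than the −0.03 and −0.25 before it. For OE against EV the difference of the ratios was −0.04 (exact permutation p = 0.3).

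Electron transfer flavoprotein, the matrix acceptor for the acyl-CoA dehydrogenases, is a dimer of ETFA and ETFB. ETFA (chr15:76188555-76311730) was at 163 and 168 CPM in NT, 218, 227 and 216 in KD, 200.1 and 196 in EV, and 166, 168 and 165 in OE. KD was the highest group, EV came next, and the OE and NT samples overlapped at the bottom. ETFA rose by 0.42 in KD against NT (SE 0.045, adjusted p = 2.80e-08) and the interaction fell by 0.67 on the log2 scale (SE 0.063, adjusted p = 7.92e-09), both kept in every alternative. In OE against EV it fell by 0.25 (SE 0.045, adjusted p = 4.72e-05). That call held without KD 2 or KD 3 and was lost when any other single sample was left out, with values of −0.25 without NT 1, NT 2, KD 1, OE 1 or OE 3, −0.26 without OE 2, −0.22 without EV 1 and −0.27 without EV 2. It was also lost with the size factors of DESeq2 in place of TMM. Removing the trend on G and C content, as described below, lost it too (−0.12, adjusted p = 0.0204). EV against NT gave 0.26 (SE 0.049, adjusted p = 0.000206), called by DESeq2 and without KD 2 (0.26, adjusted p = 9.27e-06).

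ETFB (chr19:51345169-51366388) was at 23.4 and 27.4 CPM in NT, 35.5, 33.0 and 33.9 in KD, 29.7 and 28.4 in EV, and 32.5, 35.0 and 31.7 in OE. NT was the lowest group, EV lay between, and KD and OE overlapped. ETFB rose by 0.43 in KD against NT (SE 0.074, adjusted p = 2.52e-05). This call was lost without NT 1 (0.32) or KD 1 (0.39, adjusted p = 0.000259) and with each arm fitted alone. Removing the trend on G and C content, as described below, also lost it (0.26, adjusted p = 0.00228). OE against EV gave 0.19 (SE 0.074, adjusted p = 0.0368) and the interaction −0.24 (SE 0.10, adjusted p = 0.0636). Exons of ETFB overlap those of 2 annotated genes without a symbol, by 216 bases on the opposite strand and 337 on the same strand.

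The ETFA to ETFB ratio of counts was 6.95 and 6.12 in NT, 6.14, 6.87 and 6.37 in KD, 6.73 and 6.9 in EV, and 5.09, 4.8 and 5.21 in OE. The 3 OE ratios were the lowest of all 10, and KD overlapped NT. The OE mean lay 0.44 under the EV mean on the log2 scale (difference −0.44, two-sided exact permutation p = 0.1, again the smallest possible). With the trend on G and C content removed as described below, most of this difference was gone, as ETFA was at −0.12 and ETFB at −0.04 in OE against EV, in place of −0.25 and 0.19. KD against NT gave −0.02 (exact permutation p = 0.8), which turned to 0.08 without NT 1 and 0.02 without KD 1.

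**Figure D3:**
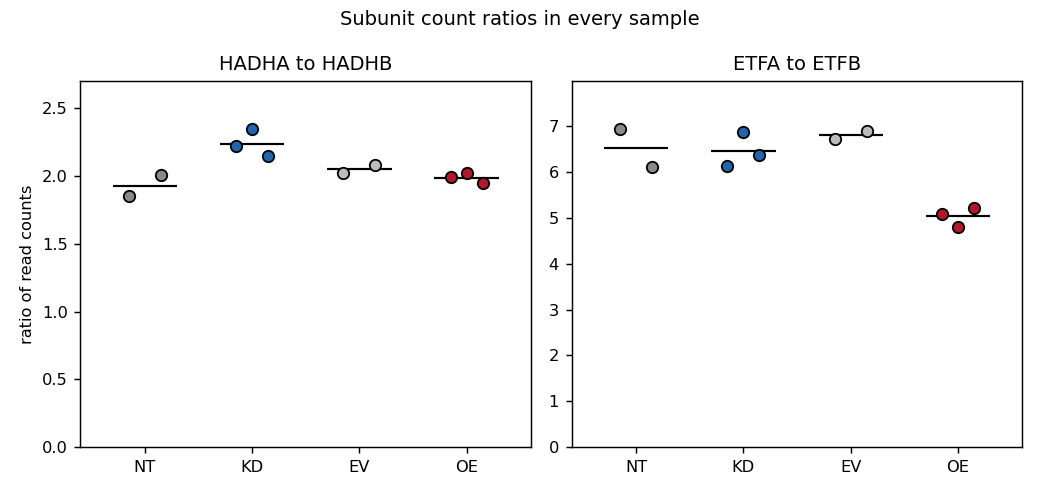
Ratio of read counts of HADHA to HADHB and of ETFA to ETFB in every sample of NT, KD, EV and OE (points: samples; lines: group means). HADHA to HADHB is highest in KD (2.15 to 2.35), and ETFA to ETFB is lowest in OE (4.8 to 5.21).

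ETFDH (chr4:158671968-158710742), the inner membrane enzyme that passes these electrons on to ubiquinone, was at 31.2 CPM in both NT samples, 35.9, 32.6 and 33.5 in KD, 35.7 and 35.5 in EV, and 34.8, 29.96 and 30.5 in OE. The OE samples were below EV and overlapped NT and KD. It was not called in any comparison, with −0.16 in OE against EV (95% interval −0.31 to −0.02, adjusted p = 0.0546), 0.13 in KD against NT (95% interval −0.02 to 0.27, adjusted p = 0.136) and −0.29 for the interaction (SE 0.10, adjusted p = 0.0213). ETFDH shares 1427 exonic bases with the antisense gene PPID and 259 with C4orf46, also antisense, and 219 with a U3 small nucleolar RNA gene on its own strand. ACADVL shares 49 with the antisense gene DLG4. Whether the counting used strand is not given in the sources used here, so reads of such pairs cannot be told apart.

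**Figure D4:**
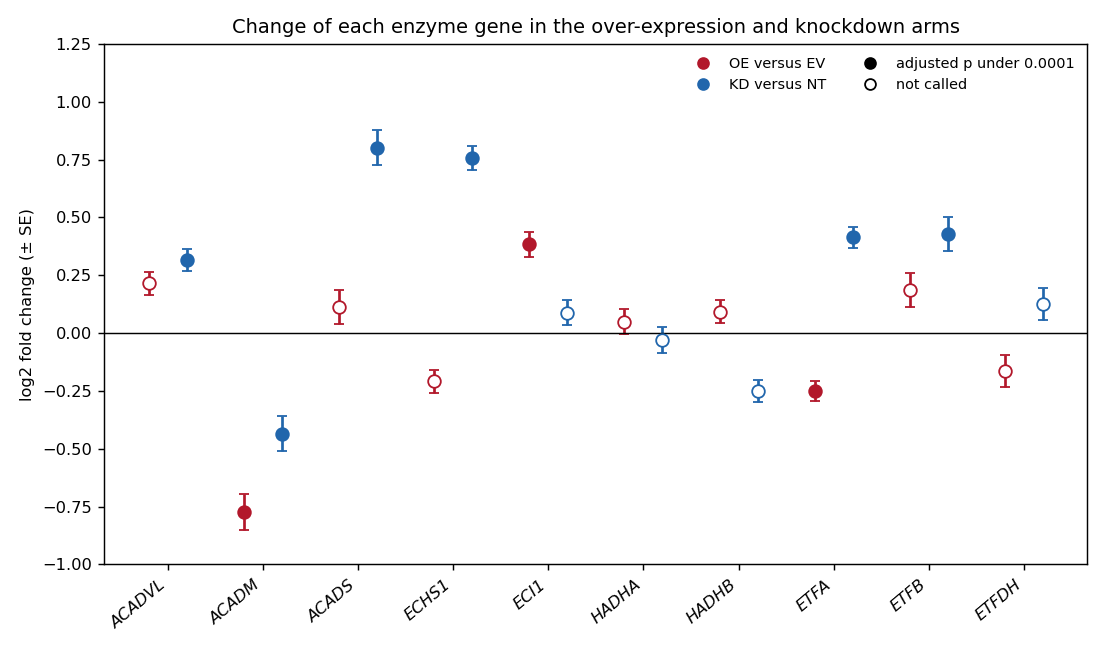
Log2 difference (bars: SE) of each of the 10 genes in OE against EV and in KD against NT; filled points passed the limit of adjusted p under 0.0001. ACADS and ECHS1 stand highest in KD against NT (0.80 and 0.76), and ACADM is the lowest in OE against EV (−0.77).

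In KD against NT, 5 of the 10 genes rose (ACADVL, ACADS, ECHS1, ETFA and ETFB) and 1 fell (ACADM). Of all tested genes, 16.4% were called higher and 12.8% lower. The median log2 difference of the 10 genes was 0.22, against −0.02 for all tested genes. At an adjusted p under 0.05, 7 of the 10 were called, against 57.5% of all genes. The count at the stricter limit came to 3 without NT 1 and to 4 without NT 2, and with the arms fitted alone it was 4.

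In OE against EV, 1 of the 10 rose (ECI1) and 2 fell (ACADM and ETFA), where 11.6% of all tested genes were called higher and 10.3% lower. Their median was 0.07, against −0.02 over all genes, and 6 of the 10 were called at 0.05, against 52.0% of all genes. These shares are near the background. Without EV 1 or EV 2, 1 of the 10 remained called, ACADM. The interaction fell for 3 of the 10 (ACADS, ECHS1 and ETFA) and rose by edgeR for 0 of them. The background was 8.98% lower and 6.94% higher. At an unadjusted p under 0.05, 2 genes (HADHB and ECI1) had a higher interaction, DESeq2 called 1 higher and limma-voom 0. At an adjusted p under 0.05 the interaction was called for 7 of the 10, against 44.3% of all genes, and at the stricter limit 5 were called without KD 2. The median interaction was −0.27, against −0.02 for all genes.

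OE against EV and KD against NT share no samples. ACADM had a negative difference in both arms (−0.77 and −0.43). ECHS1 (−0.21 and 0.76), ETFA (−0.25 and 0.42) and ETFDH (−0.16 and 0.13) had a negative value in OE and a positive one in KD, and HADHB (0.09 and −0.25) and HADHA (0.05 and −0.03) the reverse. Of the genes with opposite signs, only ETFA passed the limit in both arms, and ACADM passed it in both with 1 sign. ACADVL (0.22 and 0.32), ACADS (0.11 and 0.80), ECI1 (0.38 and 0.09) and ETFB (0.19 and 0.43) were positive in both arms, and each passed the limit in 1 arm only. With the trend on G and C content removed as described below, ACADS (−0.15) and ETFB (−0.04) were negative in OE against EV. ECI1 (−0.09) was then negative in KD against NT, and ETFDH was at 0 in OE against EV. With scaling to library size alone, HADHA and HADHB were at −0.05 and −0.01 in OE against EV, and HADHA was at 0.01 in KD against NT. The medians of all genes then moved from −0.02 to −0.12 in OE against EV and from −0.02 to −0.15 for the interaction. The genes called there were 1220 higher and 2168 lower in OE against EV, in place of 2004 and 1774, and 693 higher and 2127 lower for the interaction, in place of 1196 and 1548.

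The controls were compared with each other because they differ in vector and selection. EV against NT shares EV with the overexpression arm and NT with the knockdown arm, so its values are given only side by side. ACADS (0.65) and ECI1 (0.40) were called higher in EV by edgeR and 0 genes lower, where 5.25% of all genes were called higher and 2.91% lower. At an unadjusted p under 0.05, 1 gene was lower (ACADM, −0.29, adjusted p = 0.00823), and DESeq2 and limma-voom called 0 lower. The median of the 10 was 0.22, against −0.004 over all genes, and 6 of the 10 were called at 0.05, against 34.1% of all genes. The count of 2 came to 0 without NT 1 or EV 2, to 1 without NT 2 or EV 1, and to 4 without KD 2. ACADVL (0.24), ECHS1 (0.24), ETFA (0.26), ETFB (0.20) and ETFDH (0.19) were on the positive side, and ACADVL was called without KD 2 (0.24, adjusted p = 2.07e-05). HADHA was at 0.05 and HADHB at −0.04. For ACADS, ACADVL, ECHS1, ETFA and ETFB, EV lay above NT and KD also lay above NT. Vector, selection and line cannot be told apart here.

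The base composition of transcripts moved with these comparisons. The G and C content of the canonical transcripts was 35.9% for ACADM, 42.9% for ETFDH, 43.8% for ETFA, 44.3% for HADHB, 49.1% for HADHA, 55.0% for ECHS1, 57.8% for ACADVL, 61.1% for ETFB, 61.3% for ECI1 and 63.7% for ACADS. It was known for 81.4% of all tested genes. The median log2 difference of all genes in OE against EV went from −0.35 for transcripts under 40% G and C to 0.27 for those over 60%, in KD against NT from −0.24 to 0.13, and in EV against NT from −0.21 to 0.16. ACADM stands at the low end of this scale and ECI1, ETFB and ACADS at the high end. With each sample's trend on G and C content removed, an alternative chosen after seeing the data, ACADM in OE against EV was at −0.37 (adjusted p = 4.01e-06) and still called. ACADM in KD against NT was at −0.20 (adjusted p = 0.00121) and no longer called. Calls were also lost for ECI1 in OE against EV (0.15, adjusted p = 0.00314) and in EV against NT (0.22, adjusted p = 0.000461), for ETFA in OE against EV (−0.12, adjusted p = 0.0204), and for ACADVL (0.13, adjusted p = 0.00509) and ETFB (0.26, adjusted p = 0.00228) in KD against NT.

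The KD calls of ACADS (0.65), ECHS1 (0.59) and ETFA (0.44), and the interactions of ACADS (−0.80), ECHS1 (−0.96) and ETFA (−0.56), were kept after the same removal. ECHS1 in OE against EV then passed the limit at −0.37 (adjusted p = 2.56e-08), and HADHB in KD against NT at −0.23 (adjusted p = 5.81e-05). The HADHB interaction was called too, at 0.44 (adjusted p = 1.33e-06), and ETFA in EV against NT at 0.31 (adjusted p = 4.72e-06). In OE against EV, ACADS was at −0.15 and ETFB at −0.04, with their signs turned, ACADVL was at 0.02, ETFDH was at 0 (adjusted p = 1) and HADHB was at 0.21 (adjusted p = 0.000344). In EV against NT most differences shrank, to 0.08 for ACADVL, 0.11 for ECHS1, 0.02 for ETFB and −0.04 for ACADM, while ETFDH was at 0.26. Across the 10 genes, Pearson's r between G and C content and the log2 difference was 0.78 in OE against EV, 0.69 in KD against NT, 0.79 in EV against NT and −0.04 for the interaction. Across all genes it was 0.32 in OE against EV, 0.13 in KD against NT, 0.23 in EV against NT and 0.125 for the interaction. Genes are not independent replicates, and these values are a description.

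**Figure D5:**
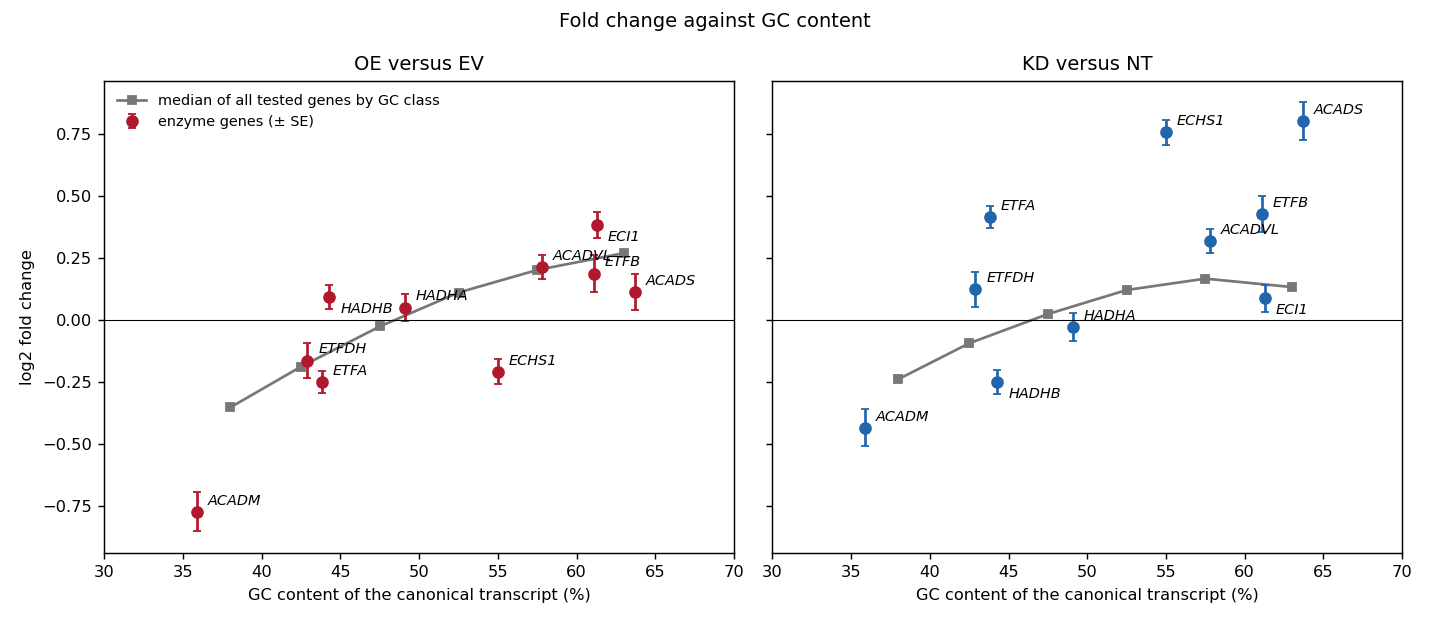
Log2 difference of the 10 genes (points; bars: SE) against the G and C content of their canonical transcripts in percent, for OE against EV and KD against NT, with the median of all tested genes in 6 classes of G and C content (squares, joined by lines). ACADM lies below the all-gene medians in both comparisons. In KD against NT, ECHS1, ACADS, ETFA, ETFB, ACADVL and ETFDH lie above the line, HADHB lies below it, and HADHA and ECI1 lie near it.

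The genes around each locus were read in the same way, as the 20 nearest tested genes on each side, and the loci of ECI1, ECHS1, ACADS and ACADM are described after their values were seen. Over all tested genes, the OE against EV comparison called 11.6% on the higher side and 10.3% on the lower side, and its median was −0.02. Around ECI1, the 40 neighbours had a median of 0.43 in OE against EV and 21 of them were called higher, while ECI1 was at 0.38. Around ECHS1, near the end of chromosome 10, 24 neighbours were found. Their median was −0.46 in OE against EV, with 9 called lower, beside −0.21 for ECHS1, and −0.01 in KD against NT, beside 0.76. Only 1 of these 24 neighbours exceeded ECHS1 in KD against NT (23 were below it). ACADS in KD against NT exceeded 39 of its 40 neighbours, whose median was 0.18. In EV against NT it also exceeded 39 of the 40, whose median was 0.10. Around ACADM the median was −0.27 in OE against EV, with 11 of 40 called lower, beside −0.77 for ACADM, and 6 of the 40 were lower still. Around the other 6 genes, the medians ran from −0.29 (ETFDH) to 0.25 (ACADVL) in OE against EV and from −0.22 (ETFB) to 0.09 (ACADVL) in KD against NT. The part of the neighbourhood in these results was not tested.

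Other genes of the pathway were described from lists written from general knowledge. The counts of each list are to be read against all tested genes, of which 16.4% were higher and 12.8% lower in KD against NT, and 11.6% and 10.3% in OE against EV. For the interaction these shares were 6.94% and 8.98%, and in EV against NT 5.25% and 2.91%. The medians of all genes were −0.02 in KD against NT, in OE against EV and for the interaction, and −0.004 in EV against NT. With 7 to 10 genes tested in a list, nothing is called particular to one. Of the 8 other matrix enzymes of beta-oxidation, 2 rose in KD against NT, 1 fell in OE against EV, the interaction fell for 2, and 2 were higher in EV than in NT. The medians of this list were 0.15, 0.02, −0.23 and 0.13 in that order. ACAT1, the acetoacetyl-CoA thiolase, was at 133.8 and 132.5 CPM in NT, 122, 124 and 126 in KD, 147 and 149 in EV, and 92.8, 90.5 and 98.6 in OE. The OE samples were the lowest without overlap. ACAT1 fell by 0.65 on the log2 scale in OE against EV (SE 0.048, adjusted p = 1.09e-10), with an interaction of −0.55 (adjusted p = 3.99e-07). ECI2, a second enoyl-CoA isomerase, rose by 0.39 in KD against NT (adjusted p = 1.62e-07), where ECI1 was not called. ECI2 was also called higher in EV than in NT (0.31, adjusted p = 6.36e-05), and its interaction was not called (−0.21, adjusted p = 0.0115). ACADL, the long-chain dehydrogenase, was low at 4.38 to 9.29 CPM, with an interaction of −1.38 (SE 0.20, adjusted p = 5.09e-06). Neither arm passed the limit, with −0.73 in OE against EV and 0.65 in KD against NT. ACADL was 0.955 higher in EV than in NT (adjusted p = 4.28e-05), which was called.

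The 7 other dehydrogenases that pass electrons to electron transfer flavoprotein had 2 genes higher and 1 lower in KD against NT, 1 lower in OE against EV, and 1 higher and 3 lower for the interaction; 1 was higher in EV than in NT. Their medians were 0.15, −0.23, −0.61 and 0.29 in that order. DMGDH, the dimethylglycine dehydrogenase of choline breakdown, had 6.75 and 7.19 CPM in NT, 0.804, 0.907 and 0.763 in KD, 6.86 and 5.68 in EV, and 8.14, 7.88 and 6.46 in OE. Every KD sample was far below every other sample. DMGDH fell by 3.08 on the log2 scale in KD against NT (SE 0.18, adjusted p = 4.04e-13), and its interaction was 3.33 (SE 0.22, adjusted p = 2.25e-11), a direction opposite to the interactions of ACADS, ECHS1 and ETFA. IVD, the isovaleryl-CoA dehydrogenase of leucine breakdown, rose by 0.58 in KD against NT (adjusted p = 6.15e-10) with an interaction of −0.61 (adjusted p = 1.50e-07). IVD was also called higher in EV than in NT (0.53, adjusted p = 6.84e-08), and was at −0.03 in OE against EV. ACAD8, which acts in valine breakdown, rose by 0.44 (adjusted p = 1.95e-06) with an interaction of −0.75 (adjusted p = 2.57e-07).

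Of 8 genes of flavin supply and flavoprotein upkeep, 7 were tested, SLC52A1 being too low. In KD against NT 3 rose and 1 fell, in OE against EV 1 rose and 1 fell, the interaction fell for 1, and 1 was higher in EV than in NT. The medians were 0.35, −0.05, −0.19 and 0.15. RFK, the riboflavin kinase, was at 42.7 and 40.5 CPM in NT, 56.1, 50.4 and 53.4 in KD, 45.5 and 47.1 in EV, and 28.4, 33.0 and 35.2 in OE. KD was the highest and OE the lowest group. RFK fell by 0.52 in OE against EV (adjusted p = 2.42e-06) and its interaction was −0.88 (SE 0.10, adjusted p = 1.97e-07). The riboflavin transporters SLC52A2 and SLC52A3 were among the risers. SLC52A2 rose by 0.73 in OE against EV (adjusted p = 4.04e-10) and by 0.355 in KD against NT (adjusted p = 1.34e-05). SLC52A3 rose by 1.49 in KD against NT (adjusted p = 1.19e-08) and was also called higher in EV than in NT (1.11, adjusted p = 2.49e-05).

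Of 11 regulators of beta-oxidation genes, 10 were tested, HNF4A being too low. In KD against NT 2 rose and 1 fell, in OE against EV 2 rose and 2 fell, the interaction rose for 1 and fell for 2, and 2 were higher in EV than in NT. The medians were 0.13, −0.02, −0.08 and 0.25, and the counts in KD against NT were near the shares of all genes. In OE against EV, 2 of 10 were called in each direction, beside 11.6% higher and 10.3% lower over all genes. With 10 genes these counts cannot be told from those shares. PPARGC1B, a coactivator of mitochondrial genes, was at 22.1 and 22.9 CPM in NT, 35.0, 36.9 and 33.5 in KD, 26.5 and 30.3 in EV, and 21.4, 22.5 and 22.7 in OE. It rose by 0.64 in KD against NT (adjusted p = 6.41e-08), and its interaction was −0.997 (SE 0.10, adjusted p = 3.76e-08). KD was the highest group for PPARGC1B, as for ECHS1 and ETFA, and OE overlapped NT. NRIP1, a corepressor of nuclear receptors, fell by 0.90 in OE against EV (adjusted p = 2.85e-09), and RXRB, a partner of nuclear receptors, rose by 0.38 in OE (adjusted p = 1.62e-05) and fell by 0.38 in KD (adjusted p = 1.31e-05).

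ANGPTL4, a PPAR target gene outside the matrix pathway, rose by 1.78 in OE against EV (SE 0.31, adjusted p = 3.17e-05) from levels under 1 CPM.

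For each of the 10 genes, the gene with the most similar log2 CPM over the 10 samples was sought among all others with a mean log2 CPM of at least 1, as a description with no test, since the samples fall into 4 groups. SF3B1 was the closest to ACADM (Pearson's r = 0.996), SCAMP4 to ACADVL (0.992) and DUS1L to ACADS (0.987). RRP1B was the closest to ECHS1 (0.996) and KLC4 to ECI1 (0.997). For HADHA it was COX5B (0.975), for HADHB NATD1 (0.996), for ETFA ALDH1B1 (0.995) and for ETFB YARS2 (0.968). ETFDH had the least similar partner, HECA (0.891).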

How the data were processed

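RNA from 10 samples was sequenced as 150 bp pairs. The authors trimmed adapters with BBDuk, dropped reads under 50 bp, and aligned and counted reads with STAR 2.6.0a on the Ensembl human transcriptome, release 96; the deposited values are whole-number counts per gene symbol, and 0 columns were unused. How reads matching several genes were counted is not given in the sources used here. Genes were filtered with filterByExpr, scaled with TMM and fitted with 1 mean per group in edgeR 4.0.16 (R 4.3.3), with quasi-likelihood F tests and Benjamini-Hochberg adjustment. Groups and replicate numbers came from the sample labels. Subunit ratios were compared with exact permutation tests. The members and the gene lists were chosen with earlier results of these data known. Named genes were the 10 members, CPT1A, the 3 genes of each list with the smallest interaction p, and the closest gene to each member. Of the list of PPAR targets only 1 gene is described. Alternatives were DESeq2 1.42.0 (size factors and Wald test), limma-voom (limma 3.58.1), library-size scaling, no filter, a minimum of 10 counts in every sample, each arm alone, a replicate block, a limit of 0.05, leaving out each sample, and, chosen after seeing the data, a G and C content offset. Transcript lengths and positions came from a GENCODE annotation of GRCh38. The pipeline was tested on simulated data.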

Additional observations from a re-analysis of the deposited data

How the results depend on the processing

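Of the log2 differences of the 10 genes under the alternatives with all samples, 304 kept their direction and their side of the limit, 17 gained a call, 10 lost one and 9 changed sign. With each sample left out in turn, 367 stayed, 7 gained a call, 24 lost one and 2 changed sign. The cause was not tested. Calls lost are given with the genes, and so are most calls gained. The others were gained by ECHS1 in OE against EV with scaling to library size (−0.31), by HADHB in KD against NT with the minimum of 10 counts (−0.27), and in EV against NT by ETFA with scaling to library size (0.265) or with no filter (0.27) and by ACADVL with no filter (0.25). Scaling to library size turned the sign of HADHA (−0.049) and HADHB (−0.005) in OE against EV, of HADHA in KD against NT (0.005) and of the HADHA interaction (−0.054). The G and C content offset, chosen after seeing the data, turned ACADS (−0.149) and ETFB (−0.042) in OE against EV, ECI1 in KD against NT (−0.087) and HADHA in EV against NT (−0.004). None of these turned values passed the limit. At an adjusted p under 0.05, 6 of the 10 genes were called in OE against EV (8956 over all genes, from 3778), 7 in KD against NT (9905, from 5022), 7 for the interaction (7631, from 2744) and 6 in EV against NT (5867, from 1406). With no filter, EV against NT gave 4 of the 10 and 2306 over all genes. Leaving out a control sample left 1 in its group, which was then assumed to vary like the other groups. Over the samples left out, 1 to 4 of the 10 were called in OE against EV (1740 to 4969 over all genes), 3 to 7 in KD against NT (3110 to 5339), 2 to 5 for the interaction (1786 to 3696) and 0 to 4 in EV against NT (509 to 2438). HADHA in KD against NT then ran from −0.096 to 0.007, and the ETFA to ETFB difference in KD against NT from −0.108 to 0.076. On average, samples with the same number did not deviate together (mean r −0.003 over 13 pairs, from −0.044 to 0.078). The mean over 24 other pairs was 0.002. A mean over pairs cannot show whether a single pair shares an effect. KD 2 and OE 2, which each stood apart in their group, have the same number, and a link between them was not tested. With a replicate block, 3, 6, 3 and 3 of the 10 genes were called in the order above (4258, 5236, 3108 and 1780 over all genes), ETFA in EV against NT gained a call (0.262), no other call of the 10 changed, and HADHA in KD against NT was at 0.002. Depth limits the smallest levels, since 3 counts come to 0.09951 to 0.1358 CPM.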

Other observations

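RABGGTB, a neighbour of ACADM on chromosome 1 whose exons overlap those of ACADM by 157 bases on the same strand, was chosen after its values were seen. RABGGTB, the beta subunit of a geranylgeranyl transferase for Rab proteins, fell by 0.74 on the log2 scale in OE against EV (SE 0.066, adjusted p = 2.70e-09) and by 0.63 in KD against NT (SE 0.062, adjusted p = 5.27e-09). ACADM fell by 0.77 and 0.43 in the same comparisons. EV lay 0.51 below NT for RABGGTB (difference −0.51, adjusted p = 3.63e-06). How far shared reads bear on either gene was not tested.

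PPID, which overlaps ETFDH on the opposite strand and was also chosen after its values were seen, fell by 0.36 in OE against EV (SE 0.063, adjusted p = 4.37e-05), where ETFDH was not called. DLG4, which overlaps ACADVL on the opposite strand, fell by 0.52 in KD against NT (SE 0.094, adjusted p = 4.57e-05), where ACADVL rose by 0.32.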
